A study of Mus musculus with 12 samples.

Results

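BV2 cells, an immortalised mouse microglial line, were given extracellular vesicles (EVs) for 24 h, and the recipient cells were sequenced to ask how vesicles from LPS-treated microglia alter gene expression. The comparison described here sets 3 libraries of recipients of vesicles from LPS-treated BV2 cells (LPS_EV) against 3 libraries of recipients of vesicles from untreated BV2 cells (control_EV), out of 12 libraries in 4 groups. All recipients were resting BV2 cells given equal vesicle doses, and the other groups received vesicles labelled TGF-B (TGFB_EV) or IL-10 (IL10_EV). No recipients were given LPS without vesicles, so LPS carried over with the vesicles and an effect of the vesicles themselves cannot be told apart. Separate cultures are not named for the replicates in the labels, so each p-value reflects just the spread between libraries, which may be technical. Members of the comparison are all rows of the count table that passed a filter on low counts, 10523 of 57010.

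LPS, a cell wall component of Gram-negative bacteria, is sensed by the receptor Tlr4 on macrophages and microglia. The signal runs through the adaptors Myd88 and Ticam1 to NF-κB and interferon regulatory factors, and it switches on cytokines, acute-phase proteins and enzymes that make nitric oxide and superoxide. The opposite end of the macrophage repertoire, driven by IL-4 through Stat6 and Klf4, is marked by the lectin receptors Mrc1 and Mgl2. Vesicles that microglia release carry membrane receptors, enzymes and RNA, and neighbouring cells take them up.

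Labels of rows and their levels disagreed in this table, so the identity of each row was estimated before any gene was named. The 80 rows labelled with ribosomal protein genes, among the most abundant messages of any cell, had a median of 0.142 CPM (counts scaled to a common library total). When the exons of the rows were displaced along each chromosome by amounts fitted without the group labels, 31 ribosomal protein genes were met. The highest row of each of these genes was taken, and the median of those rows was 1629 CPM. That fit treated them as ordinary protein-coding genes and not as a class of their own. Displacements supported against others more than 10 kb away covered 93.2% of the rows and had a median size of 136.8 kb. The called rows that met Birc3, Shcbp1l, Mcfd2 and Fyb, named below, lay outside them. Of 7541 rows of at least 5 CPM, 86.2% then met a protein-coding exon and 14.6% met the gene of their own label. The fit favours displacements that put rows with counts on protein-coding exons, so neither the 86.2% nor the ribosomal levels test the identities independently. A gene met is an estimate, and where the values of a row that met several genes are given, the others are named or said to be there. The library kits are unstranded, and a gene's reads cannot be told apart from those of one that overlaps it on the other strand.

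The 6 libraries held between 10497757 and 12053680 counts, at which 3 counts correspond to between 0.249 and 0.286 CPM. By gene met, the 2 rows of Csf1r (the growth factor receptor of the lineage) held 685 CPM together in control_EV and 701 CPM in LPS_EV, and the row of Tyrobp held 781 and 757 CPM, each before TMM scaling. These rows met other genes too. Levels from here on are TMM-scaled CPM, in which library totals are adjusted for composition. No placed row met P2ry12, Tmem119 or Cx3cr1, which define microglia in the brain, or any of the 7 astrocyte markers. Marker genes of neurons, oligodendrocytes, endothelial cells, fibroblasts and lymphocytes were met by tested rows in 8 cases, and none was called. The summed level of the lymphocyte list, for example, lay between 92.4 and 113 CPM in control_EV and between 94.8 and 109 CPM in LPS_EV. The endothelial and fibroblast lists were higher, between 322 and 363 CPM and between 278 and 349 CPM in control_EV. The fibroblast list had 1 tested row, labelled Camk2a, whose counts are also among those given for Csf1r above. All of the marker rows except the one that met Sox10, of oligodendrocytes, met other genes too. The Sox10 row lay between 155 and 182 CPM in control_EV and between 158 and 171 CPM in LPS_EV. Whether it holds reads of Sox10 was not tested.

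In LPS_EV, rows that met Saa3, C3, Nos2, Cybb and Il1a rose, and rows that met Mgl2, Mrc1 and Klf4 fell. Among the largest rises were rows that met Saa3, Clec4d, Nos2, Clec4e, Slc11a2 and Il1a, at between 1.9-fold and 3.8-fold. The falls were smaller except for Frmpd1 and Mgl2. With edgeR's quasi-likelihood test and Benjamini-Hochberg adjusted p under 0.05, 86 of 10523 rows (0.817%) were called, 57 higher (0.542%) and 29 lower (0.276%). The median log2 fold change was 0.50 in the rises, -0.34 in the falls and 0.0018 over all tested rows. Among the called rows 3 rose and 2 fell by at least 2-fold.

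The called rows met 87 protein-coding genes, 62 rows meeting 1 such gene and 16 several. In 28 called rows the genes met included that of the label. In 83 of the 86 called rows no LPS_EV library overlapped a control_EV library, against 16.2% of all tested rows. Several genes were met by more than 1 called row, and each such pair moved the same way: Slc11a2, Dst, Fyb and Dmxl2 rose, and Mgl2, Ccar1, Fyn and Vwa5a fell.

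**Figure D1:**
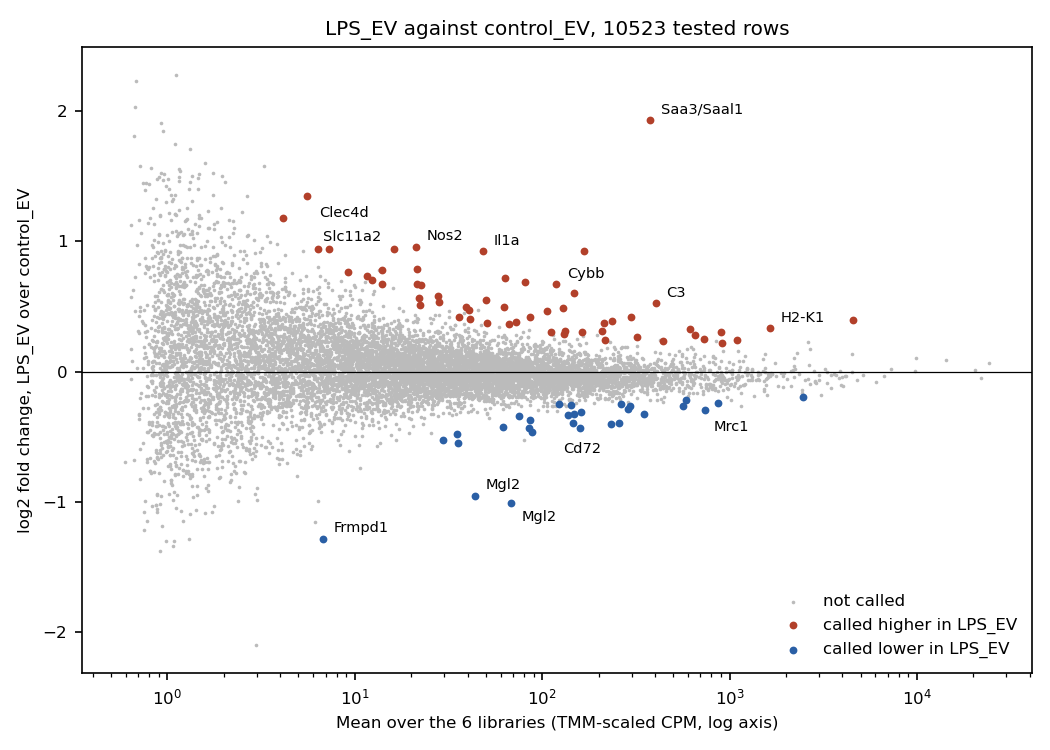
Each point is a tested row, with its mean over the 6 libraries in TMM-scaled CPM on a log axis and the log2 fold change of LPS_EV over control_EV; red and blue mark called rows, and the genes met are written beside some. The row that met Saa3 and Saal1 stands highest among the called rows at 1.94, and the 2 rows that met Mgl2 and the row that met Frmpd1 lie lowest.

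LPS_EV replicate 1 lay nearer to the controls than replicates 2 and 3. It was the lowest of the 3 LPS_EV libraries in 37 of the 57 called rises and the highest in 20 of the 29 called falls. The median log2 ratio to the control mean in the called rises was 0.37 in replicate 1 and 0.53 in each of replicates 2 and 3. Calls depended on which libraries entered. Without LPS_EV replicate 3 there were 18 called rows, without LPS_EV replicate 2 there were 27, without control_EV replicate 1 there were 53, and without LPS_EV replicate 1 there were 127. With a dispersion fitted to all 12 libraries, no row passed in edgeR (0 calls), and 753 had an unadjusted p under 0.05, against 1180 in the 6 libraries. DESeq2 on the same 6 libraries called 119 rows (3.19%) of the 3735 to which it gave an adjusted p, 42 higher and 77 lower. Its balance of rises and falls was the reverse of that of edgeR, but over a different set of rows. Rows called by edgeR that got no adjusted p there included rises (Clec4d, Clec4e and Nos2) and falls (Frmpd1 and Fos). The balance over shared rows was not compared.

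**Figure D2:**
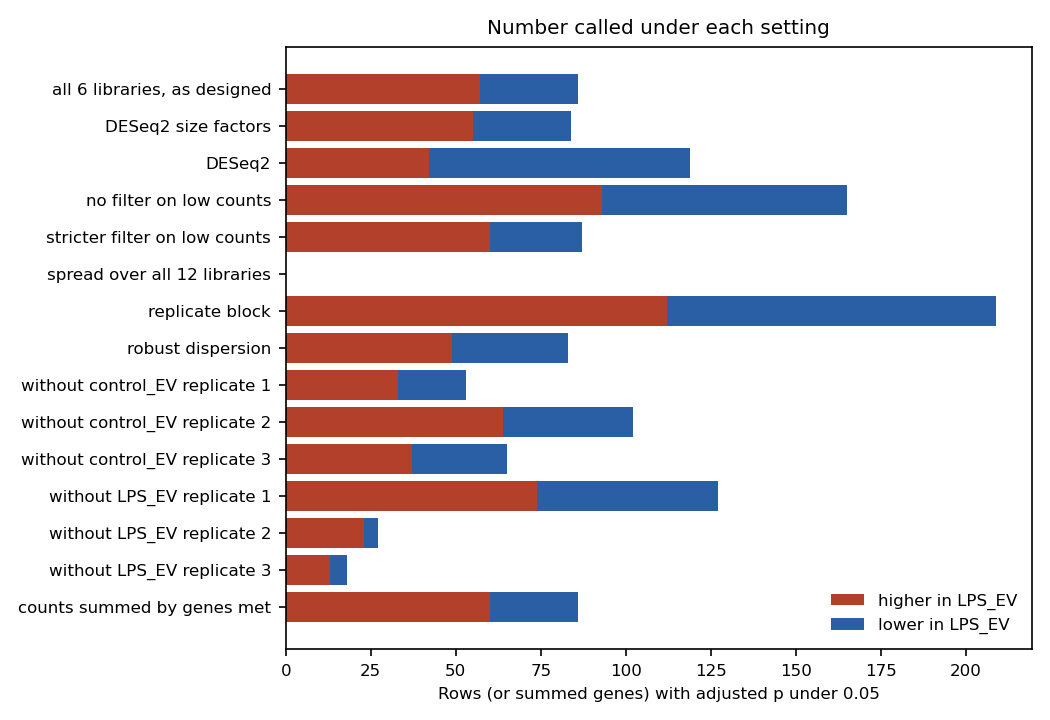
Bars give the number of rows with an adjusted p under 0.05, red for higher and blue for lower in LPS_EV, for the design as reported and for each alternative. The count runs from 0 with the spread of all 12 libraries to 209 with the replicate number as a block, and the largest blue share belongs to DESeq2.

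The largest rise among called rows was in one that met an acute-phase gene. Saa3 encodes a serum amyloid A protein that macrophages secrete during inflammation, at chr7:46711998-46715700 (GRCm38, GENCODE M21). The row labelled LOC102637012 (ENSMUSG00000111473) met Saa3 together with its neighbour Saal1. It stood at 118, 192 and 159 CPM in the control_EV libraries and at 263, 874 and 656 CPM in the LPS_EV libraries. Every LPS_EV library lay above every control, with replicate 1 far below the other two. The row rose by 1.94 on the log2 scale (SE 0.23, adjusted p = 7.5e-05), and the value lay between 1.55 and 2.29 when libraries were left out in turn. A robust estimate of the dispersion, which gives rows with outlying spread less shrinkage, ended the call (adjusted p = 0.33).

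C3, the central complement protein that is cleaved to tag targets for phagocytosis, lies at chr17:57203970-57228136. The row labelled Mllt1 met it and held 313, 350 and 329 CPM in control_EV and 408, 536 and 485 CPM in LPS_EV. The groups did not overlap, and the row rose by 0.53 on the log2 scale (SE 0.07, adjusted p = 0.0002). Of the 18 genes of the acute-phase and complement list 5 were met by tested rows, and Saa3 and C3 were the 2 that rose. The row that met C1qc, a chain of the first complement component, stood at 47.1 CPM in control_EV and 38.5 CPM in LPS_EV and was not called (adjusted p = 0.21). The median log2 fold change of the 5 was 0.14, against -0.01 over all 7797 protein-coding genes met, of which 1.08% were called (0.68% higher and 0.398% lower). In each list a gene is represented by the tested row with the most counts.

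Rows that met Nos2 and Cybb, enzymes that make antimicrobial oxidants, rose. Nos2, the inducible nitric oxide synthase, lies at chr11:78920787-78960254 and was met by the row labelled Ksr1 over a short stretch of 58 bases. That row had 11.9, 21.2 and 9.997 CPM in control_EV and 22.2, 30.02 and 31.8 CPM in LPS_EV. Control replicate 2 came close to LPS_EV replicate 1, without overlap. The row rose by 0.96 on the log2 scale (SE 0.19, adjusted p = 0.0086).

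Cybb encodes the flavocytochrome chain of the phagocyte oxidase, which makes superoxide, at chrX:9435252-9487771. The row labelled H2al1o met it, with 81.2, 108 and 85.3 CPM in control_EV and 123.1, 157 and 160 CPM in LPS_EV. It rose by 0.67 on the log2 scale (SE 0.09, adjusted p = 0.00025), with every LPS_EV library above every control.

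Of the 14 oxidant and eicosanoid enzymes 8 were met by tested rows. Of these 3 rose, Nos2 and Cybb among them, and 5 were not called, among them Ncf1, Rac2, Ptges and Sod2. Except for Ptges, the rows that stand for these met other genes too. The median of the 8 was 0.15, and over all protein-coding genes met 0.68% were called higher. With the robust dispersion the calls of Nos2 and Cybb ended, at adjusted p values of 0.30 and 0.10.

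Among cytokines, Il1a rose. Interleukin-1α is an alarm cytokine that signals through the interleukin-1 receptor, and its gene lies at chr2:129299610-129309972. The row labelled F830045P16Rik met it and stood at 33.1, 32.4 and 35.2 CPM in control_EV and 49.3, 77.2 and 64.6 CPM in LPS_EV. The controls lay within a narrow range and all LPS_EV libraries were above it. The row rose by 0.92 on the log2 scale (SE 0.12, adjusted p = 8.7e-05). The call held in each of the 6 fits that left out a library, in DESeq2 and with the robust dispersion.

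Of 28 cytokine and chemokine genes 11 were met by tested rows. Il1a was called and the other 10 were not, against 0.68% called higher over all protein-coding genes met. A row labelled Heatr6 met Ccl3 and Ccl4, chemokines that recruit monocytes, and Rpl9-ps1, at 392 CPM in control_EV and 463 CPM in LPS_EV (log2 fold change 0.24, adjusted p = 0.073). A row labelled Lsm2 met Tnf and its neighbour Lta, at 23.9 and 32.4 CPM (log2 fold change 0.43, adjusted p = 0.11). DESeq2 called the row that met Ccl3 and Ccl4 (adjusted p = 0.031). The list's median was 0.05, and its count of called genes went from 1 to 4 without control_EV replicate 2 and to 3 without LPS_EV replicate 1.

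Of 36 genes of the Toll-like receptor and NF-κB list, which stands for the sensing pathway itself, 18 were met by tested rows. Of these 1 rose and none fell, with a median of -0.03, against 0.68% called higher and 0.398% lower over all protein-coding genes met. No tested row met Nfkbia, Tnfaip3 or Cd14, so the list covers the pathway only in part. The riser was Birc3, an inhibitor of apoptosis and NF-κB target, met by the row of its own label at 131, 118 and 106 CPM in control_EV and 147, 141 and 152 CPM in LPS_EV. It rose by 0.31 on the log2 scale (SE 0.07, adjusted p = 0.026), without overlap, and lost its call in 4 of the 6 fits that left out a library. The displacement that places this row was not among the supported ones, with a score 2.43 above the best one more than 10 kb away. Tlr4, the LPS receptor, was met by its own row at 24.8 CPM in control_EV and 21.2 CPM in LPS_EV (log2 fold change -0.23, adjusted p = 0.53). The row labelled Ceacam19 met Relb, a subunit of non-canonical NF-κB, at 26.5 and 34.4 CPM (log2 fold change 0.38, adjusted p = 0.11). Of the 7 tested inhibitors of inflammatory signalling none was called, and their median was -0.15.

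**Figure D3:**
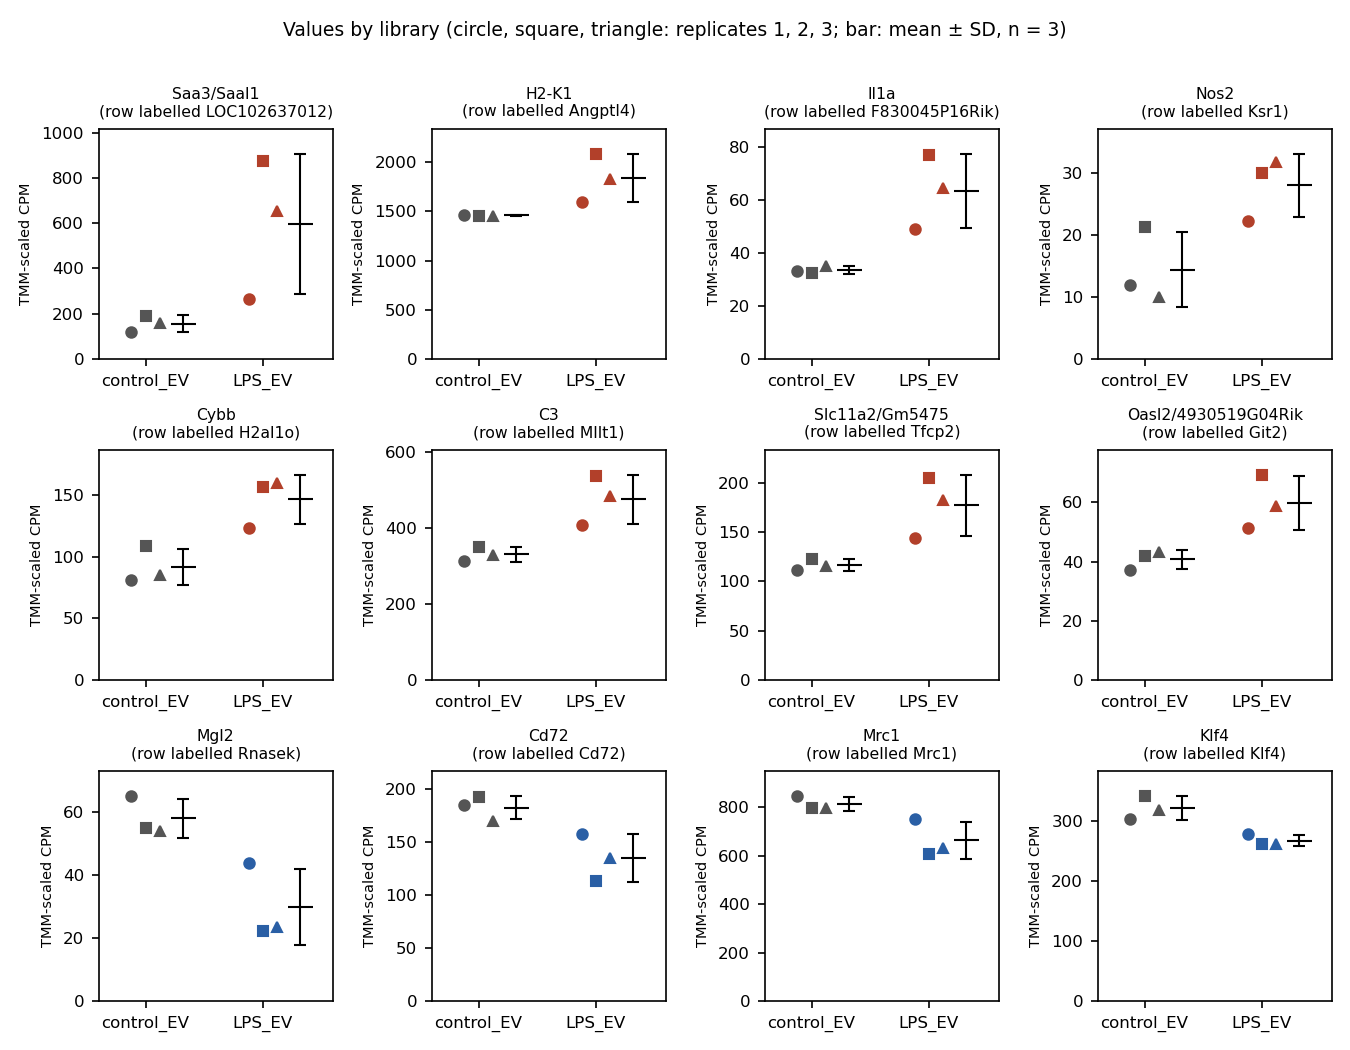
Values of 12 named rows in each library, in TMM-scaled CPM from 0, with circles, squares and triangles for replicates 1, 2 and 3 and bars for the mean ± SD of 3 libraries. In all 12 panels the groups do not overlap, and in each the circle of LPS_EV replicate 1 is the LPS_EV library nearest to the controls.

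The C-type lectin receptors Clec4d and Clec4e, neighbours on chromosome 6, form an activating complex on myeloid cells that recognises mycobacterial glycolipids. The row labelled Clec4e met Clec4d (chr6:123262111-123275265), at 2.96, 3.51 and 2.89 CPM in control_EV and 4.59, 10.5 and 8.80 CPM in LPS_EV. It rose by 1.35 on the log2 scale (SE 0.27, adjusted p = 0.011). The row labelled Vmn2r19 met Clec4e (chr6:123281789-123289870), at 4.10, 6.25 and 4.54 CPM in control_EV and 10.8, 11.1 and 6.92 CPM in LPS_EV. It rose by 0.95 (SE 0.22, adjusted p = 0.034). Both rows were low, DESeq2 gave neither an adjusted p, and the calls ended in 3 and 4 of the 6 fits that left out a library. The other 4 tested genes of the lectin pathway list were not called, and the list's median was 0.01. Over all protein-coding genes met, 0.68% were called higher.

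Among interferon-responsive genes, rows that met Oasl2 and Lgals3bp rose. Oasl2 belongs to the 2'-5' oligoadenylate synthetase family of antiviral proteins, and the row labelled Git2 met it together with 4930519G04Rik. That row held 37.3, 41.8 and 43.3 CPM in control_EV and 51.3, 69.4 and 58.8 CPM in LPS_EV, a rise of 0.55 on the log2 scale (SE 0.10, adjusted p = 0.0052). Lgals3bp, a secreted galectin-binding glycoprotein, was met by the row labelled Rbfox3, the symbol of a neuronal marker. It rose from 17.45 ± 2.25 to 27.6 ± 3.00 CPM (SD, n = 3), by 0.67 on the log2 scale (SE 0.12, adjusted p = 0.0065). Of 14 tested members 12 were not called and 10 had values above 0, among them Gbp5 and Gbp7, which were met by the same row. Over all 7797 protein-coding genes met, 0.68% were called higher and 3521 had values above 0. The list's median was 0.23, and 0.09 with the stricter filter on low counts, which removes rows such as that of Rsad2 with Rnf144a (0.705 CPM in control_EV and 1.92 CPM in LPS_EV).

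H2-K1, a classical MHC class I heavy chain at chr17:33996017-34000347, was met by the row labelled Angptl4. Its values were 1468, 1453 and 1457 CPM in control_EV and 1599, 2087 and 1832 CPM in LPS_EV. The controls were close together and the row rose by 0.33 on the log2 scale (SE 0.06, adjusted p = 0.0069). DESeq2 and the robust dispersion left it uncalled, at adjusted p values of 0.099 and 0.094. Abcb9, a lysosomal peptide transporter related to the TAP proteins, was met by the row labelled Denr over 93 bases. It rose from 6.83 ± 1.19 to 11.6 ± 0.586 CPM (SD, n = 3), by 0.77 on the log2 scale (SE 0.18, adjusted p = 0.031). These were the 2 called genes among 13 tested members of the antigen presentation list, 10 of which had values above 0, with a median of 0.06. Over all 7797 protein-coding genes met, 0.68% were called higher and 3521 had values above 0.

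Promoters of rising genes were read from RefSeq windows on GRCm38.p6 that run from 250 bases before to 50 bases after the start site, because NF-κB and interferon regulatory factors act downstream of Tlr4. A window was found for 45 of the 56 genes met by rising rows. Searched on both strands were the NF-κB consensus, the core AANNGAAA that interferon regulatory factors bind, and the C/EBP motif TTNNGNAA, and matches of different motifs may overlap. The interferon regulatory core was put in place of a longer form after matches to the longer form had been seen. It was in 20 of the 45 windows (44.4%), in 2 of 26 windows of genes met by falling rows (7.69%), in 17.2% of 6105 windows of all genes met by tested rows and in 23.9% of all 32851 windows. Those with a match included Saa3, C3, Clec4d, Clec4e, Cybb, Birc3, Ikbke, Lgals3bp, Oas3 and H2-K1, and the windows of Oasl2 and Il1a had none. Some matching windows lie far from the start of the gene in the annotation used to place rows, those of Cybb, Fyb, Nhsl1 and Dst by 18447, 56994, 88690 and 103370 bases. The 4 sets held 57.2%, 63.8%, 60.8% and 53.8% G and C, and the part of base composition in these shares was not tested.

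The other motifs lay closer to the background. The NF-κB consensus was in 4 of the 45 windows (8.89%), in 10.3% of the windows of all genes met and in 8.46% of all windows. The C/EBP motif was in 16 of the 45 (35.6%), in 30.8% and in 40.7%. A match describes the letters and is not a site of binding, and some windows belong to a neighbour that the same row met.

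The windows of Saa3 (chr7:46715627-46715926, minus strand), Clec4d (chr6:123261857-123262156, plus strand) and H2-K1 (chr17:34000298-34000597, minus strand) are given 5′ to 3′. Capitals mark the interferon regulatory core in each, read on the other strand in Clec4d and H2-K1, and in H2-K1 also the run of 2 overlapping NF-κB matches before it. They are shown because Saa3 and Clec4d head the rises and H2-K1 had the highest level among the rises that met a protein-coding gene.
Saa3: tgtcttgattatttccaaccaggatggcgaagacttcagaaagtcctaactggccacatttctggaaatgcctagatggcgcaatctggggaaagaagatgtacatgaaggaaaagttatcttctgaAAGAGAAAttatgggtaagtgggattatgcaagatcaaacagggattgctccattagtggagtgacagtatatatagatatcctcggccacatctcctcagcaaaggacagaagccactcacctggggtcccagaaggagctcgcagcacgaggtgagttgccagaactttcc
Clec4d: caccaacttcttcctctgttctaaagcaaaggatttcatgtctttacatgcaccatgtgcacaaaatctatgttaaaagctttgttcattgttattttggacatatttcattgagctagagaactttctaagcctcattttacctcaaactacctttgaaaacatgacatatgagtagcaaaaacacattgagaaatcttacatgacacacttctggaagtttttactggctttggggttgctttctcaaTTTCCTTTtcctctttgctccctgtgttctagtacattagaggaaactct
H2-K1: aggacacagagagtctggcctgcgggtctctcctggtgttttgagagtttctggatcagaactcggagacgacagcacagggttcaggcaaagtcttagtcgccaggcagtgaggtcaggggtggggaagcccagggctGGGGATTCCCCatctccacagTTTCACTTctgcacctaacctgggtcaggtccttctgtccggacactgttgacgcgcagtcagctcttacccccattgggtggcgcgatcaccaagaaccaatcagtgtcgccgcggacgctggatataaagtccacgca

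Slc11a2, which carries ferrous iron and other divalent metals across endosomal and plasma membranes, lies at chr15:100387898-100425072 and was met by 2 rows. The row labelled Tfcp2, which also met Gm5475, held 111, 123.1 and 116 CPM in control_EV and 144, 205 and 183 CPM in LPS_EV, and rose by 0.60 on the log2 scale (SE 0.09, adjusted p = 0.00033). The row labelled Csrnp2 held 8.88, 11.9 and 12.3 CPM in control_EV and 18.4, 23.8 and 21.6 CPM in LPS_EV, and rose by 0.94 (SE 0.15, adjusted p = 0.0012). Neither pair of groups overlapped, and neither call ended when any library was left out. Slc11a2 was the 1 called gene of 9 tested members of the iron handling list, whose median was -0.07. Among all protein-coding genes met, 0.68% were called higher. No row met the cystine transporter Slc7a11 at the posterior required, and the row that carries its label rose by 0.50 (SE 0.10, adjusted p = 0.015). Of 10 tested genes of the NRF2 antioxidant list none was called, and 8 had values above 0, against 3521 of all 7797 genes met.

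Other large rises, by the rule for named rows, were in rows labelled Npl, Bend6, 4930515G01Rik, Prex1, Cgn, Slc12a1 and ENSMUSG00000118573, with log2 fold changes between 0.68 and 0.94. The row labelled Npl met Shcbp1l, the next 5 met no protein-coding exon, and the last has no position in the annotation. The row labelled Cgn, which met the non-coding gene BC021767, rose from 48.2 ± 10.4 to 79.2 ± 9.76 CPM (SD, n = 3; log2 fold change 0.72, SE 0.11, adjusted p = 0.0011). What these rows hold is not known from the fit.

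Of the genes on the alternative activation list, Mgl2, Mrc1 and Klf4 fell. Mgl2 encodes a galactose-binding lectin receptor of alternatively activated macrophages and dendritic cells, at chr11:70130329-70137550. Both rows that met it did so over little more than a read's length, 122 bases in the row labelled Alox12 and 114 in the row labelled Rnasek. The row labelled Alox12 held 116, 80.3 and 77.3 CPM in control_EV and 73.8, 26.0 and 36.0 CPM in LPS_EV. It fell by 1.01 on the log2 scale (SE 0.21, adjusted p = 0.012). The row labelled Rnasek held 65.3, 55.1 and 54.0 CPM in control_EV and 43.95, 22.4 and 23.6 CPM in LPS_EV, and fell by 0.96 (SE 0.16, adjusted p = 0.0017). In both rows LPS_EV replicates 2 and 3 stood well under the lowest control, while replicate 1 lay nearer to it. Neither row was called by DESeq2 (adjusted p = 0.28 and 0.077) or with the robust dispersion (adjusted p = 0.55 and 0.36).

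Mrc1, the mannose receptor, lies at chr2:14229392-14332057 and was met by the row of its own label. That row held 848, 796 and 798 CPM in control_EV and 750, 607 and 632 CPM in LPS_EV, without overlap. It fell by 0.30 on the log2 scale (SE 0.06, adjusted p = 0.014). Klf4, a transcription factor that promotes the alternative programme downstream of Stat6, was also met by its own row, at 303, 342 and 317 CPM in control_EV and 278, 262 and 261 CPM in LPS_EV. It fell by 0.27 (SE 0.06, adjusted p = 0.017). The row that met Stat6 itself held 172 CPM in control_EV and 160 CPM in LPS_EV and was not called. These were the 3 called genes of 7 tested, of which 5 had values below 0 and 2 above, and the list's median was -0.27. Over all 7797 protein-coding genes met, 0.398% were called lower, and 4276 had values below 0 and 3521 above. The calls of Mrc1 and Klf4 ended in 3 of the 6 fits that left out a library, LPS_EV replicates 2 and 3 among them for each. Of the rows that met Mgl2, the one labelled Alox12 lost its call without either of those libraries, and the one labelled Rnasek lost it without replicate 2 and kept it without replicate 3.

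**Figure D4:**
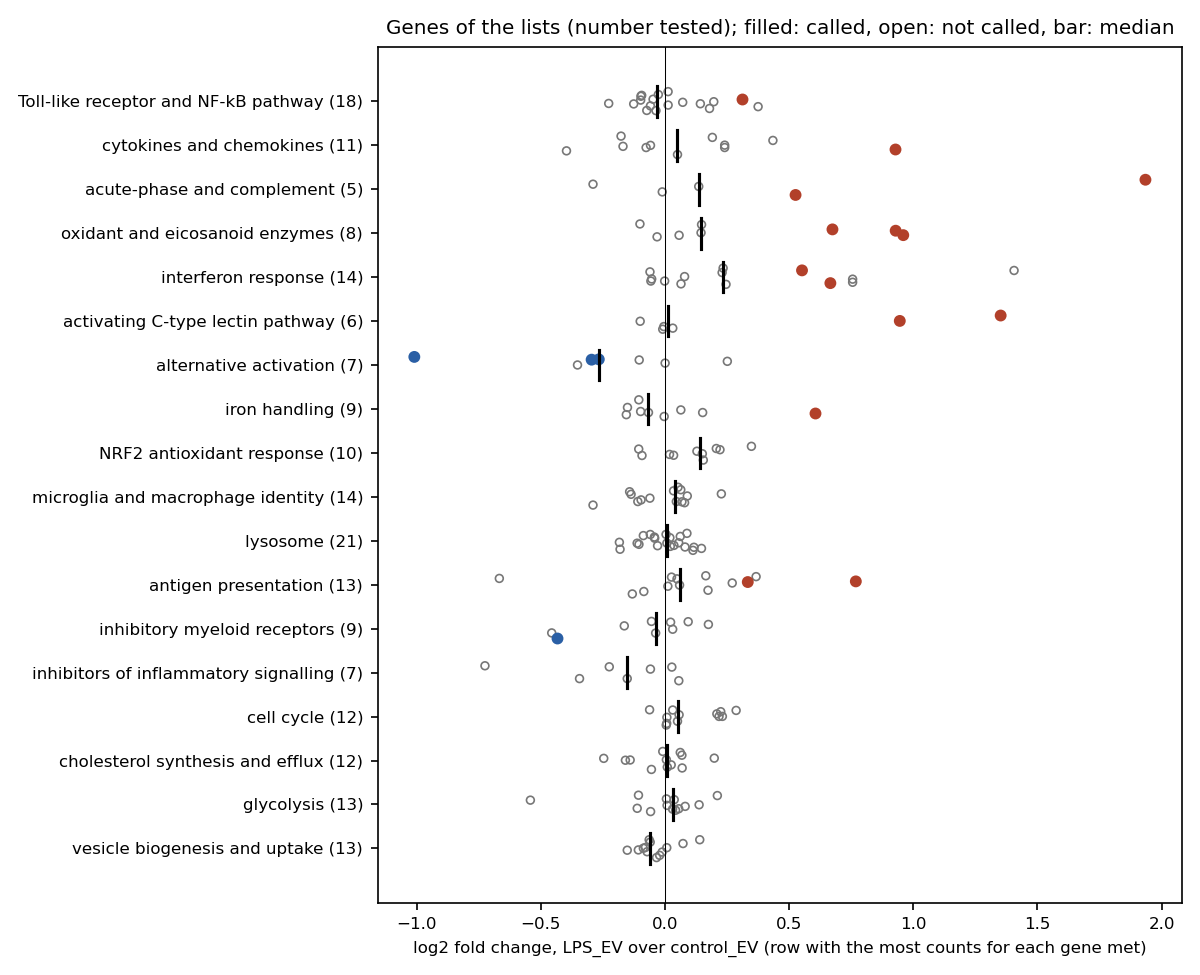
Each point is a gene of one of 18 lists, placed at the log2 fold change of the tested row with the most counts that met it; filled points were called, open points were not, and bars are list medians. Called points are few in every list, and the median of the alternative activation list, -0.27, is the farthest from 0, followed by 0.23 for interferon response. The lists were chosen with earlier results of these data known, so this order is not a test.

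Cd72, an inhibitory receptor of B cells and myeloid cells, lies at chr4:43446462-43454628. The row of its own label held 185, 193 and 170 CPM in control_EV and 158, 113 and 135 CPM in LPS_EV, and fell by 0.43 on the log2 scale (SE 0.08, adjusted p = 0.0077). Another row, labelled Tesk1, met Cd72 at 115 CPM in control_EV and 97.5 CPM in LPS_EV (log2 fold change -0.24, adjusted p = 0.080), and DESeq2 called it (adjusted p = 0.032). The first row's call ended with the robust dispersion (adjusted p = 0.10) and without LPS_EV replicate 2 or 3. Cd72 was the 1 called gene of 9 tested inhibitory receptors, with a list median of -0.04. Among all protein-coding genes met, 0.398% were called lower.

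Fos, a subunit of the AP-1 transcription factor, was met by the row labelled Gm40477. It held 41.6, 37.0 and 43.9 CPM in control_EV and 34.8, 24.97 and 28.0 CPM in LPS_EV, a fall of 0.48 on the log2 scale (SE 0.11, adjusted p = 0.034). Ccar1, a co-activator in cell cycle and apoptosis control, was met by 2 called rows. The row labelled Slc25a16 held 256, 265 and 278 CPM in control_EV and 203, 196 and 204 CPM in LPS_EV, one of the tightest separations among the falls, and fell by 0.40 (SE 0.06, adjusted p = 0.00025). The row labelled Gm16128 fell by 0.43 (SE 0.08, adjusted p = 0.0057). Another row that met Ccar1, with Tet1, was not called at -0.25.

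The largest fall in log2 terms was in the row of Frmpd1, a scaffold protein of G protein signalling, which met its own gene over 2865 bases. It held 11.6, 8.91 and 8.26 CPM in control_EV and 6.15, 2.61 and 3.05 CPM in LPS_EV (log2 fold change -1.29, SE 0.26, adjusted p = 0.0097). Serpinb9b, a relative of the granzyme B inhibitor, was met by the row labelled Serpinb1a and fell by 0.55 (SE 0.10, adjusted p = 0.0085). Rows that met Zyx with Epha1 and Lpxn fell by 0.39 each (adjusted p = 0.0015 and 0.0052). Zyx and Lpxn are focal adhesion proteins of the LIM domain class. The row labelled 2010310C07Rik, which met Zyx and Epha1, held 261, 314 and 303 CPM in control_EV and 229, 224 and 215 CPM in LPS_EV. The remaining named falls were Spag1 at -0.53, Slc39a10 with Dnah7c at -0.47, Desi1 with Pmm1 at -0.44, Mcfd2 at -0.37 and Pip4k2a at -0.34 on the log2 scale.

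Genes of basic cell state were not called by edgeR, a count near the background of 1.08%. None of the 14 tested genes of microglia and macrophage identity, 21 of the lysosome, 12 of the cell cycle, 12 of cholesterol synthesis and efflux, 13 of glycolysis and 13 of vesicle biogenesis and uptake passed the test. Their medians lay between -0.06 and 0.05, close to the -0.01 over all protein-coding genes met. Values were above 0 in 11 of the 12 cell cycle genes and below 0 in 10 of the 13 genes of vesicle biogenesis and uptake, against 3521 above and 4276 below over all 7797 genes met. The row that met Tgfbr1, the TGF-β receptor kinase that keeps microglia in their resting state, held 286.5 CPM in control_EV and 268 CPM in LPS_EV (log2 fold change -0.10, adjusted p = 0.54). The row that met Lyz2, lysozyme of myeloid cells, held 2421 and 2834 CPM (log2 fold change 0.23, adjusted p = 0.11). The row labelled Cdc14b met Ctsl, a lysosomal protease, at 1690 and 1491 CPM (log2 fold change -0.18, adjusted p = 0.067), and DESeq2 called it (adjusted p = 0.0027). Simulated counts for these rows gave a recovery of 61% at 1.5-fold and 75% at 2-fold, so a gene left uncalled may still have changed by such amounts.

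The same rows can be set beside the other vesicle groups, which share the 3 control_EV libraries, so the columns of values are not independent. For the row that met Saa3 and Saal1 the log2 fold changes over control_EV were 1.94 in LPS_EV, -0.53 in TGFB_EV and 1.84 in IL10_EV. The IL10_EV libraries held 250, 1020 and 413 CPM and the TGFB_EV libraries 127, 118 and 79.2 CPM. In IL10_EV replicate 2 stood far above the other two, and the IL10_EV difference was not called (adjusted p = 0.9996). For Nos2 the values were 0.96, -0.28 and 0.82, with IL10_EV libraries at 10.95, 55.7 and 9.73 CPM. For Mgl2 in the row labelled Rnasek they were -0.96, -0.19 and -0.97. The 86 rows were not called in TGFB_EV or IL10_EV, and the share called over all tested rows of those comparisons is not given here. In IL10_EV each of the 86 had the same adjusted p of 0.9996. The lack of calls therefore does not make these rows particular to LPS_EV, and differences between the vesicle groups were not tested.

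**Figure D5:**
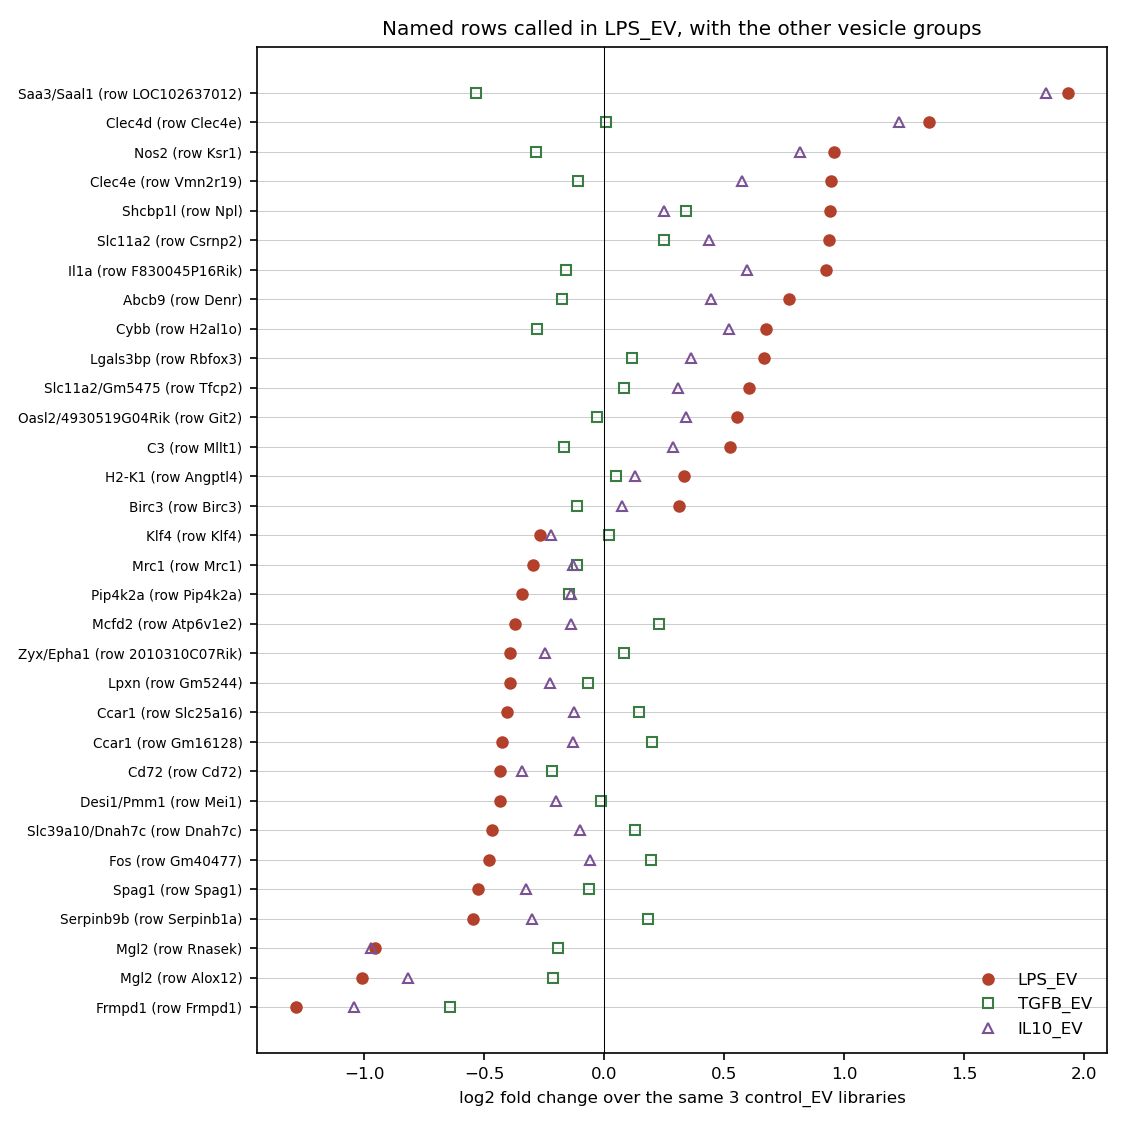
For named rows called in LPS_EV that met a protein-coding gene, the log2 fold change over the same 3 control_EV libraries is shown for LPS_EV (filled circles), TGFB_EV (open squares) and IL10_EV (open triangles). For Saa3 the circle and the triangle lie at 1.94 and 1.84 and the square at -0.53.

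The calls named above were not equally firm. Of 39 named rows that were called, 11 kept an adjusted p under 0.05 in all 6 fits that left out 1 library. Among these were the rows that met Saa3, Il1a, Cybb, C3 and both rows of Slc11a2, the row labelled Slc25a16 that met Ccar1, the row that met Zyx and Epha1, and the rows labelled Cgn and ENSMUSG00000118573. Of those listed, the rows that met Saa3 and Cybb and those labelled Cgn and ENSMUSG00000118573 lost their call with the robust dispersion. Without LPS_EV replicate 2, and likewise without LPS_EV replicate 3, 24 of the 39 lost their call. With the spread of all 12 libraries all 39 lost it, the smallest adjusted p then being 0.33. None of the 39 changed direction under any alternative fitted by row.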

How the data were processed

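The values are raw counts, deposited by the authors as whole numbers for each Ensembl mouse gene ID. RNA was column-purified and libraries were made with SMART-Seq v4 and Nextera XT after 18 PCR cycles, per the labels' protocols; these kits do not mark strand. DESeq2 was used, per the submitters' processing notes. The aligner, counter, build and annotation: not given in the sources used here. Groups and replicate numbers come from the sample titles. Of 57010 rows 52029 matched a symbol, and rows without one held 1.81% of the counts. Floors of 3 counts cover counting error only, because reads carry no molecular identifiers.

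Row identity was estimated with a hidden Markov model. Exons of each row (GENCODE M21) were displaced in steps of 100 bp over at most 2000 kb either way, with penalties of 30, 15 (within 100 kb) and 12 (within 5 kb) for a change of displacement. The model used the mean of all 12 libraries and no group labels. It gave 132 stretches, 103 of them with a score at least 5 above the next. Stretches below that margin place the called rows that met Birc3 (2.43), Shcbp1l (-0.2), Mcfd2 (0.66) and Fyb (1.79). A gene was met where displaced exons overlapped its exons, allowing 50 bp, with a posterior of at least 0.8. In simulated data 99.2%, 99.6% and 91.6% of rows on chromosomes 5, 9 and 14 were placed within 200 bp. Those simulations follow the model's assumptions and say nothing on accuracy in the real table.

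The quasi-likelihood F test of edgeR 4.0.16 (R 4.3.3) was run on the 6 libraries without covariates, after filterByExpr (minimum count 10) and TMM, with Benjamini-Hochberg adjustment over 10523 rows. Levels are TMM-scaled CPM, except that the row identity check and the Csf1r and Tyrobp levels use CPM without TMM; fold changes are log2 values with a standard error (SE). In simulated counts for these rows there were 6 false calls among 142. Those counts were drawn with a spread set by level alone and with independent libraries, so they give no error rate for the real calls. Named were called rows of at least 5 CPM with the 15 largest rises and 15 largest falls, up to 6 members a list, and 16 genes always given; a few other list members and genes with promoter matches were picked after their values were seen. The members, the 18 process lists and 6 marker lists were chosen with earlier results of these data known. Lists are described by counts and medians, without a set test. Alternatives were DESeq2 1.42.0 and its size factors, no filter and a stricter filter, robust dispersion, the spread of all 12 libraries, a replicate block, each library left out, and counts summed by genes met. Promoter windows are from RefSeq (GRCm38.p6). Some rows are not reported here.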

Additional observations from a re-analysis of the deposited data

Results flagged for a closer look

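In 2 of the named rows that were called, every LPS_EV library lay above, and every TGFB_EV library below, all control_EV libraries. They are the row that met Il1a, with a log2 fold change of -0.16 in TGFB_EV, and the row that met C3, with -0.168. Both rose in LPS_EV, and neither was called in TGFB_EV. The TGFB_EV gaps were narrow. For Il1a the highest TGFB_EV library held 31.4 CPM and the lowest control 32.4 CPM, and for C3 they held 311 and 313 CPM. In IL10_EV the log2 fold changes of these rows were 0.59 and 0.29, and neither was called. The comparisons share their controls, and the difference between LPS_EV and TGFB_EV was not tested.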

How the results depend on the processing

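The 86 calls became 165 without a filter on low counts and 0 with the spread of all 12 libraries; the cause was not tested. Leaving out 1 library gave between 18 and 127 calls. The count was 84 with DESeq2 size factors, 87 with the stricter filter, 83 with robust dispersion, 119 with DESeq2 and 86 of 8959 when counts were summed by genes met. In the replicate block fit 209 rows were called, 112 of them higher, all 86 among them. Same-numbered libraries did not deviate together (correlations of 0.0071, 0.014 and 0.020), so the numbers were not taken as pairs, and the block ended no named call.

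Of the 86 rows, 69 were also called with robust dispersion and 58 by DESeq2. DESeq2 gave an adjusted p to only 3735 rows, so the rows it left uncalled include some that it did not test. It gave one to 24 of the named rows that were called, and 3 of these lost their call. None of the 86 rows changed direction under any alternative fitted by row. The identity of rows, which no alternative tests fully, limits every gene name given. Some overlaps were short, with 56 bases for Lpxn, 58 for Nos2, 62 for Serpinb9b, 93 for Clec4d and for Abcb9, 114 and 122 for the rows of Mgl2, and 0 for a row counted as meeting Fyn within the 50 bp allowed.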
